A study of Mus musculus with 6 samples.

Results

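The cytosolic RNA sensors and their adaptor MAVS were followed as 7 genes: Ddx58, Ifih1, Dhx58, Mavs, Zbp1, Eif2ak2 and Adar. They were taken by gene symbol from tables of 17067 genes, and all 7 were found in all 6 samples. The samples were macrophages taken by FACS from colons of C57BL/6 mice aged 10 weeks, gated as CD45+CD11b+F4/80+. Both groups had colitis induced with DSS (dextran sulfate sodium, a polymer that injures the colon lining), so neither group is an untreated control. The groups were wild type (WT, 3 samples) and Gsdmd-/- (3 samples). Gasdermin D, the product of Gsdmd, forms the membrane pore of pyroptosis once inflammatory caspases have cut it. How the Gsdmd allele was made, how much DSS was given and whether mice were pooled or littermates are points not given in the sources. Total RNA was sequenced in bulk on a BGISEQ-500 sequencer, so fewer cells of a type and less RNA per cell cannot be told apart.

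RNA of viruses, and double-stranded RNA of the cell itself, is read in the cytosol by several proteins. RIG-I (Ddx58) binds RNA ends that carry a triphosphate, MDA5 (Ifih1) forms filaments on long double-stranded RNA, and LGP2 (Dhx58) binds RNA but lacks the signalling domains of the other two. RIG-I and MDA5 signal through MAVS (Mavs) on the outer mitochondrial membrane, which recruits TRAF proteins and the kinases that activate IRF3 and IRF7 and so induce type I interferon. ZBP1 (Zbp1) reads Z-form nucleic acid and starts cell death through RIPK3, PKR (Eif2ak2) blocks translation by phosphorylating eIF2 alpha, and ADAR1 (Adar) converts adenosine to inosine in double-stranded RNA, which keeps it from being sensed. All of these genes except Mavs are known as interferon-stimulated genes. In the gut, macrophages can meet RNA from microbes, from viruses and from dying cells.

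Levels are in FPKM, fragments scaled by transcript length and by the number of mapped fragments of the library. Each library held an estimated 20.2 to 20.8 M fragments, so depth was nearly equal in the 6 samples. Gsdmd itself had 97.65, 99.35 and 97.35 FPKM in the WT samples, against 28.47, 28.99 and 29.69 FPKM in the Gsdmd-/- ones, lower in the group labelled as its knockout. All 9 macrophage markers were present, of which 3 rose and 5 fell as deposited (40.6% and 36.9% of all tested genes did). Their sum, mostly Lyz2 and Cd68, was 7972 to 8468 FPKM in WT and 8851 to 8925 FPKM in Gsdmd-/- samples. The deposited values of all genes also had larger sums in Gsdmd-/- samples. Rescaled to TPM (each sample's values brought to the same sum), Lyz2 had a log2 change of -0.095 and Cd68 of 0.11. The genes of the sorting gate were lower, Itgam (CD11b) at 51.7%, Ptprc (CD45) at 62.6% and Adgre1 (F4/80) at 74.2% of WT. Their log2 changes (Gsdmd-/- minus WT) were -0.94, -0.67 and -0.43 as deposited. After the correction for transcript length and GC described below, they were -0.70, -0.21 and -0.32. Summed levels of markers of other cells moved as well. The 7 fibroblast markers summed to 14.8 to 15.6 FPKM in WT and 35.5 to 36.9 FPKM in Gsdmd-/- samples, the 7 neutrophil markers to 36.2 to 40.2 and 46.9 to 50.5 FPKM, and the 5 endothelial markers, mostly Kdr, to 62.5 to 66.6 and 33.1 to 38.5 FPKM. The fibroblast sum was mostly Col1a1, Col1a2 and Dcn, which rose, as did Col3a1. Lum went from a mean of 0.113 to 0.080 FPKM, and Pdgfra and Pdgfrb stayed at or under 0.74 FPKM in each sample. Of the endothelial markers, Kdr went from a mean of 56.4 to 26.2 FPKM, while Pecam1 went up from 0.363 to 0.860 FPKM. Cdh5 and Vwf were at 117% and 97.9% of WT, with no call. Of the neutrophil markers, Ly6g and Retnlg were listed at 0 in 5 of 6 samples, and the sum was mostly Csf3r. The 6 dendritic cell markers found summed to 6.81 to 7.80 and 8.86 to 9.77 FPKM, the 6 T and NK cell markers found to 1.64 to 1.91 and 2.71 to 3.07 FPKM, the 3 epithelial markers found to 2.95 to 3.43 and 1.78 to 1.99 FPKM, and the 6 B and plasma cell markers stayed at or under 0.80 FPKM. The dendritic cell sum was mostly Ccr7, the T and NK cell sum mostly Cd4, and the epithelial sum nearly all Cdh1. Every other member of these lists had a mean at or under 1.05 FPKM in both groups. The part of other cells in the changes of the sensor genes was not tested.

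In Gsdmd-/- macrophages the transcript of MDA5 was, as deposited, the sensor transcript that differed most from WT, at 66.9% of the WT level, followed by that of PKR at 76.4%. That order did not hold once transcript length was corrected for, as described below. The transcripts of LGP2 and ZBP1 were higher as deposited, at 111% and 113% of WT, and those of RIG-I and ADAR1 were lower, at 91.1% and 93.2%. Mavs was at 92.9% of WT and did not pass the test. Genes were compared with limma across 10005 genes on log2(FPKM + 1), and a gene is said to have risen or fallen where the Benjamini-Hochberg adjusted p was under 0.05. By this rule 2 of the 7 genes rose and 4 fell, in a comparison in which 40.6% of all tested genes were called higher and 36.9% lower in Gsdmd-/- samples. The groups did not overlap for any of the 7 genes, and they did not overlap for 79.4% of all tested genes. A call was therefore the common state of a gene in these libraries, and the size of each change is given beside its call.

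**Figure D1:**
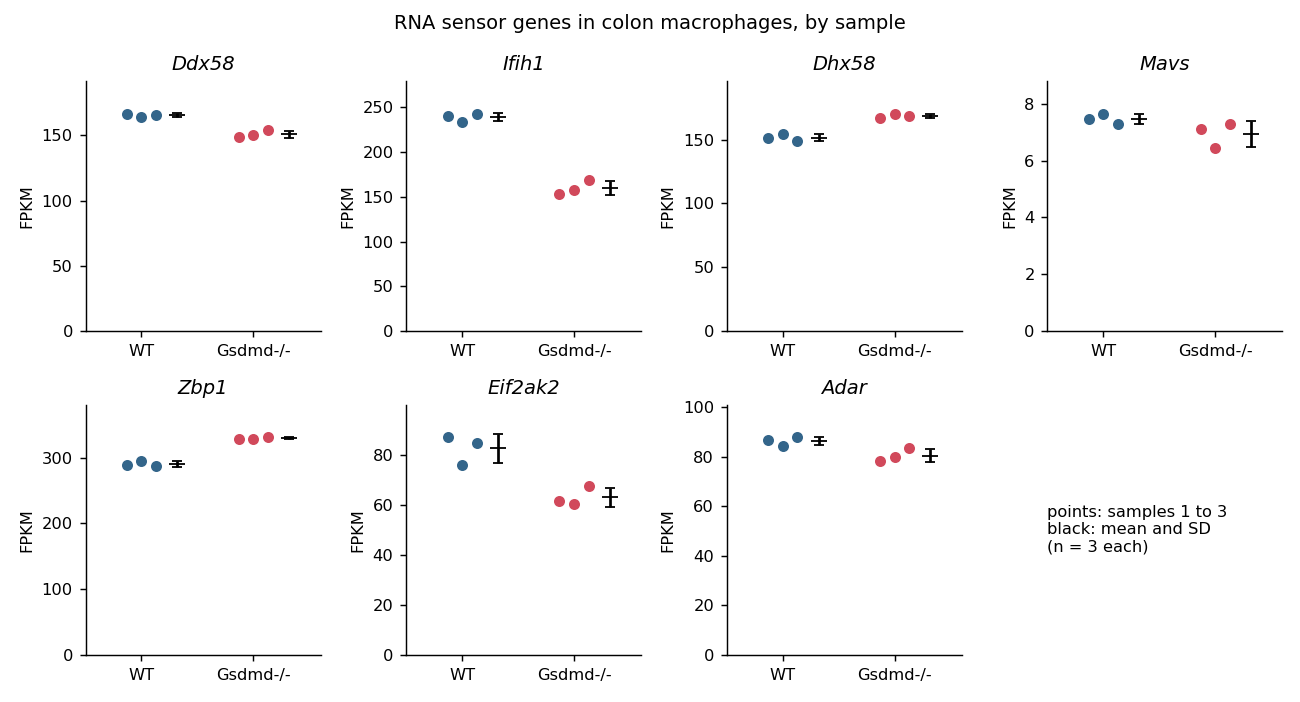
FPKM of the 7 genes in each of the 6 samples, with WT points in blue, Gsdmd-/- points in red and the mean and SD (n = 3 each) in black; each vertical axis starts at 0. Ifih1 shows the widest gap between groups, with the highest Gsdmd-/- sample at 168.69 against a lowest WT sample at 233.58, and the Mavs points all but touch, at 7.29 and 7.27.

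The size and direction of changes varied with transcript length. Across tested genes the log2 change (Gsdmd-/- minus WT) had a Spearman correlation of -0.65 with the length of the longest coding transcript and of 0.50 with its GC content. These are descriptions over genes, which share the same 6 libraries. With genes split into 10 groups by length, the median change ran from 0.52 in the shortest group to -0.48 in the longest. A smooth trend on length and GC held 50.7% of the variance of the changes, and what gave rise to the trend was not tested. For the sensor genes the trend value, the change typical of a gene of the same length and GC, was -0.48 for Ifih1, -0.35 for Eif2ak2, -0.22 for Ddx58, -0.21 for Adar, 0.11 for Mavs, 0.21 for Dhx58 and 0.26 for Zbp1. The 7 genes had the same order by trend value as by deposited change, and the sign differed for Mavs alone. Each gene is therefore given below as deposited and after correction, which means that the trend was subtracted in each sample.

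**Figure D2:**
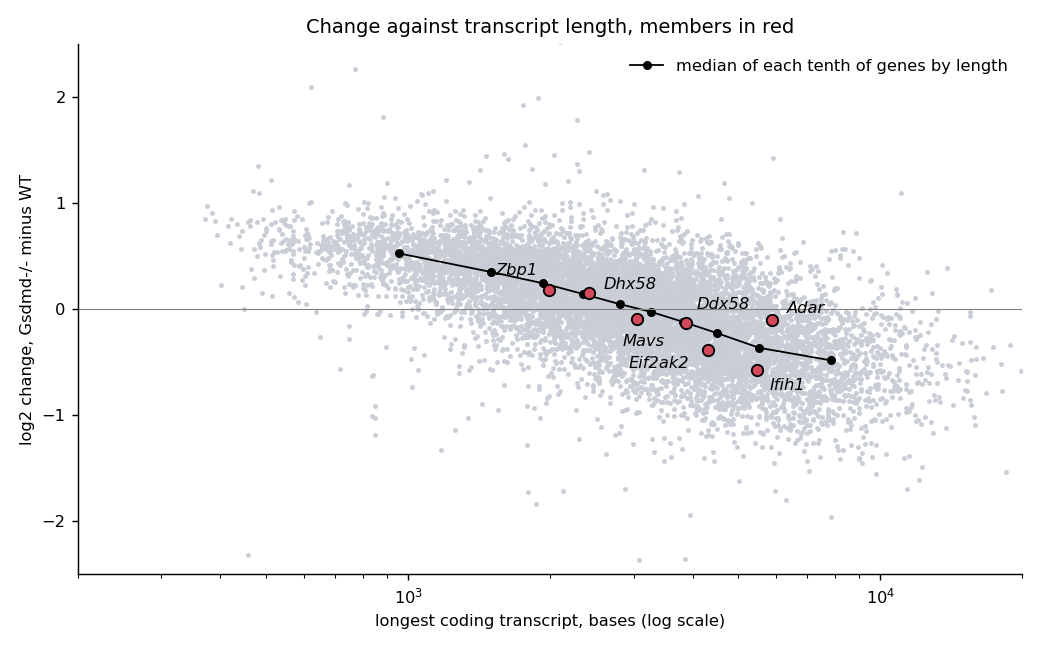
Log2 change (vertical axis) against the length of the longest coding transcript in bases (horizontal log axis) for 9852 tested genes in grey, of which 8 lie outside the axes; the black line joins the medians of 10 groups of genes by length and the 7 sensor genes are red. Zbp1 (1989 bases) and Dhx58 (2412 bases) have the shortest of these transcripts among the 7 genes and lie near the line. Ifih1 lies under the line at 5470 bases, where Adar lies above it at 5909 bases.

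After correction, 2 of the 7 genes rose (Ddx58 and Adar) and 4 fell (Ifih1, Dhx58, Mavs and Zbp1), where 30.1% of all genes with a length were called higher and 31.3% lower. Mavs then had the largest change of the 7 in size, at -0.20, and Adar, at 0.11, also stood above Ifih1, at -0.098. With the median in place of the longest coding transcript, 2 of the 7 rose (Ddx58 and Dhx58) and 1 fell (Ifih1). The shares of all genes called in that setting were not computed. After rescaling to TPM (each sample's values brought to the same sum), 0 of the 7 rose in limma, all 7 changes being below 0, and 6 fell, where 25.0% of all genes were called higher and 51.0% lower. TPM moved the median change of all genes from 0.027 to -0.17, because the deposited values of Gsdmd-/- samples have larger sums. Relative to the median of all genes, Dhx58 and Zbp1 stood at 0.12 and 0.15 as deposited and at 0.10 and 0.13 in TPM, so their place among genes was nearly the same on both scales. Ifih1 stood at -0.61 as deposited and -0.63 in TPM relative to that median.

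**Figure D3:**
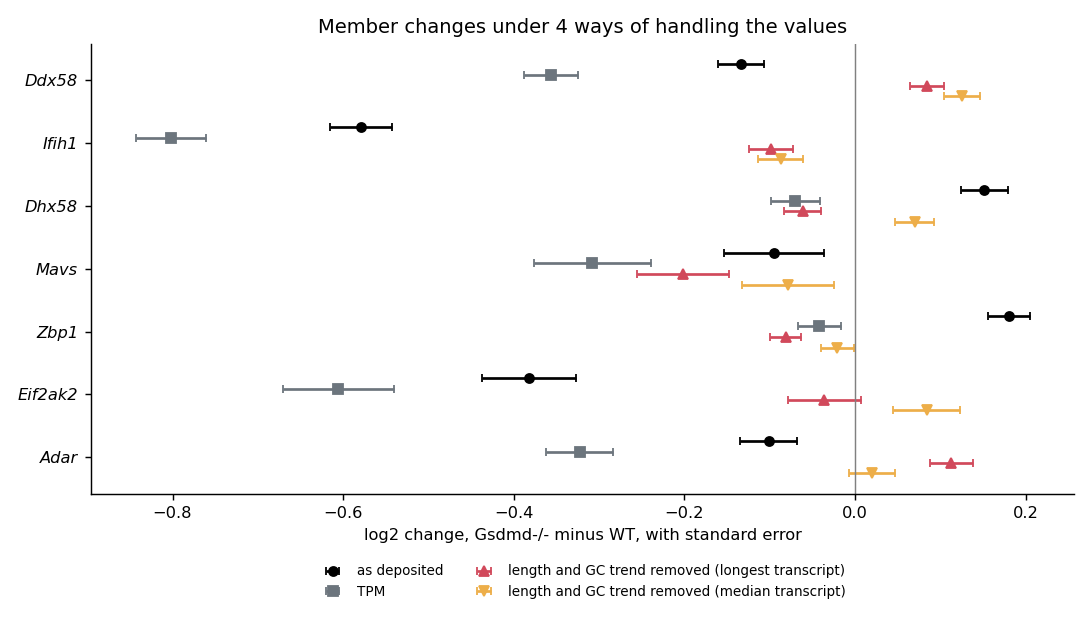
Log2 change of each of the 7 genes (horizontal axis, Gsdmd-/- minus WT, bars are standard errors from limma) as deposited, in TPM, and after correction for length and GC of the longest or the median coding transcript. Ifih1 and Mavs are left of 0 in all 4 rows of points, and the points of each of the other 5 genes lie on both sides of 0.

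RIG-I (Ddx58, gene 230073) is encoded on the minus strand of chromosome 4 at 40203777 to 40239825 in GRCm38.p6. WT samples had 166.44, 164.05 and 165.79 FPKM, and Gsdmd-/- samples 148.62, 149.85 and 153.65 FPKM. All Gsdmd-/- samples were under all WT samples, with a gap of 10.4 FPKM between the nearest ones. The mean went from 165 ± 1.24 to 151 ± 2.62 FPKM (SD, n = 3 each), and Ddx58 fell by 0.13 on the log2 scale (SE 0.027, limma adjusted p = 0.000656). The direction turned after correction, and Ddx58 was higher in Gsdmd-/- samples by 0.085 (SE 0.020, limma adjusted p = 0.00415). The deposited decrease was thus smaller than that of genes of like length and GC.

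MDA5 (Ifih1, gene 71586) is encoded on the minus strand of chromosome 2 at 62595618 to 62646255. WT samples had 240.24, 233.58 and 242.56 FPKM, and Gsdmd-/- samples 152.46, 157.82 and 168.69 FPKM. The lowest WT sample was 64.9 FPKM above the highest Gsdmd-/- sample, so the gap was wider than the range within either group. On average the level went from 239 ± 4.66 to 160 ± 8.27 FPKM (SD, n = 3 each), and Ifih1 fell by 0.58 on the log2 scale (SE 0.036, limma adjusted p = 3.99e-08). Most of this was the change typical of its length and GC, and after correction Ifih1 was still lower (log2 change -0.098, SE 0.026, limma adjusted p = 0.00787). Ifih1 was lower and past the threshold under all 14 alternatives tried, the one gene of the 7 for which this held, with log2 changes from -0.80 to -0.087.

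LGP2 (Dhx58, gene 80861) is encoded on the minus strand of chromosome 11 at 100694884 to 100704271. WT samples had 151.12, 154.69 and 148.81 FPKM, and Gsdmd-/- samples 166.58, 170.25 and 168.47 FPKM. The Gsdmd-/- samples were all higher, and the groups were 11.9 FPKM apart at their nearest. The mean level moved from 152 ± 2.96 to 168 ± 1.84 FPKM (SD, n = 3 each), and Dhx58 rose by 0.15 on the log2 scale (SE 0.027, limma adjusted p = 0.000297). The annotated coding transcript of Dhx58 has 2412 bases and a GC content of 53.9%. After correction for both the direction turned, to -0.061 (SE 0.021, limma adjusted p = 0.0287). In TPM it was -0.070 (limma adjusted p = 0.0396). Correction by the median transcript gave 0.070, a rise past the threshold (limma adjusted p = 0.0191).

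MAVS (Mavs, gene 228607), the adaptor on which RIG-I and MDA5 converge, is encoded on the plus strand of chromosome 2 at 131234063 to 131248025. WT samples had 7.46, 7.65 and 7.29 FPKM, and Gsdmd-/- samples 7.11, 6.43 and 7.27 FPKM. The second Gsdmd-/- sample was the low one, and the groups were 0.020 FPKM apart. The mean went from 7.47 ± 0.180 to 6.94 ± 0.446 FPKM (SD, n = 3 each). The log2 change was -0.095 (SE 0.059, limma adjusted p = 0.158), with a 95% interval that reached from -0.22 to 0.034. Correction gave -0.20 (SE 0.054, limma adjusted p = 0.00766) and TPM gave -0.31 (limma adjusted p = 0.00077), both past the threshold. Correction by the median transcript gave -0.079 and no call (limma adjusted p = 0.215). Mavs was the gene with the fewest fragments of the 7, an estimated 402 to 465 in each library for the longest transcript, and had the largest standard error.

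ZBP1 (Zbp1, gene 58203) is encoded on the minus strand of chromosome 2 at 173206612 to 173218959. It had the highest level of the 7 genes in both groups. WT samples had 288.61, 295.19 and 287.9 FPKM, and Gsdmd-/- samples 328.07, 329.05 and 330.97 FPKM. The Gsdmd-/- samples lay within 2.90 FPKM of each other and all above WT. The group mean moved from 291 ± 4.02 to 329 ± 1.48 FPKM (SD, n = 3 each), and Zbp1 rose by 0.18 on the log2 scale (SE 0.025, limma adjusted p = 2.85e-05). The direction turned in TPM, to -0.042 (limma adjusted p = 0.151), and after correction, to -0.081 (SE 0.019, limma adjusted p = 0.00319). Correction by the median transcript gave -0.021, not past the threshold (limma adjusted p = 0.370). At 1989 bases its longest coding transcript was the shortest of the 7 genes.

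PKR (Eif2ak2, gene 19106) is encoded on the minus strand of chromosome 17 at 78850504 to 78882572. WT samples had 86.86, 75.63 and 84.79 FPKM, and Gsdmd-/- samples 61.34, 60.28 and 67.3 FPKM. The second WT sample was low within its group and still 8.33 FPKM above the highest Gsdmd-/- sample. The mean went from 82.4 ± 5.98 to 63.0 ± 3.78 FPKM (SD, n = 3 each), and Eif2ak2 fell by 0.38 on the log2 scale (SE 0.055, limma adjusted p = 6.57e-05). After correction the log2 change was -0.036 (SE 0.043, limma adjusted p = 0.487), so no difference from genes of like length and GC was detected. With the median transcript it was 0.084 (limma adjusted p = 0.0789).

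ADAR1 (Adar, gene 56417) is encoded on the plus strand of chromosome 3 at 89714469 to 89753455. WT samples had 86.73, 84.35 and 87.73 FPKM, and Gsdmd-/- samples 78.11, 79.83 and 83.25 FPKM. The groups were 1.10 FPKM apart, less than the range within either group. Average levels went from 86.3 ± 1.74 to 80.4 ± 2.62 FPKM (SD, n = 3 each), and Adar fell by 0.10 on the log2 scale (SE 0.033, limma adjusted p = 0.0155). The call was lost without WT replicate 3 (limma adjusted p = 0.0657) and without Gsdmd-/- replicate 1 (limma adjusted p = 0.0790). After correction Adar was higher in Gsdmd-/- samples by 0.11 (SE 0.025, limma adjusted p = 0.00273). With the median transcript the corrected change was 0.020 and not past the threshold (limma adjusted p = 0.532). The interferon-induced long form of ADAR1 and the constitutive short form were not separated, as each gene has a single value.

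Several of these genes share positions with other annotated genes, and whether reads were counted by strand is not known. Ifih1 overlaps the lncRNA Gm39839 over 3543 bases and Dhx58 the lncRNA Gm38483 over 2646 bases. Eif2ak2 overlaps the transcribed pseudogene Gm6548 over 2041 bases and Gm26637 over 689 bases, and Adar overlaps the end of Chrnb2 over 8 bases. Reads of these neighbours could have entered the values.

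The DNA around the start sites is shown because the sensor genes are known interferon targets and the adaptor is not. RefSeq windows of 300 bases in GRCm38.p6, from 250 before to 50 after a start, were matched by symbol for 5 of the 7 genes, with 3 starts for Adar. Dhx58 and Zbp1 were not matched. Both strands were searched for the core of the interferon-stimulated response element (ISRE), GAAANNGAAA, held by 3.44% of all 32851 such windows, for the shorter interferon regulatory factor (IRF) motif AANNGAAA, held by 23.9%, and for the gamma-activated sequence (GAS) motif TTCNNNGAA, held by 8.30%. A match to GAAANNGAAA can also hold AANNGAAA, so these counts overlap. Sequences below are on the strand of the gene, 5′ to 3′, with bases counted from the start site as base 1, and capitals mark matches to the ISRE core or the shorter IRF motif.
Ddx58 at chr4:40239826-40239925, bases -100 to -1: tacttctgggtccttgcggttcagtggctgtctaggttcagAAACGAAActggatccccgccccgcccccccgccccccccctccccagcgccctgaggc
Ddx58 at chr4:40239804-40239833, bases -8 to 22: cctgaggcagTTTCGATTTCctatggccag
Ifih1 at chr2:62646206-62646235, bases 21 to 50: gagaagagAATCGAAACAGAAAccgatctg
Eif2ak2 at chr17:78882535-78882564, bases 9 to 38: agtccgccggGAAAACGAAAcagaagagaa
Adar (start 3) at chr3:89730736-89730765, bases 19 to 48: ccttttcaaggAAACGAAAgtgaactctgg
Mavs at chr2:131233963-131234062, bases -100 to -1: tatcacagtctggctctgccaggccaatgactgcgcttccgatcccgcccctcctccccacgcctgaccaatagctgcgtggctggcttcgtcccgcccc

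The ISRE core was found in the windows of Ddx58, Ifih1 and Eif2ak2, in each just past the start site, at base 3 (on the opposite strand), base 33 and base 19. Ddx58 also had the shorter IRF motif at base -59. Of the 3 starts of Adar, the third had the shorter IRF motif at base 30 and an overlapping GAS motif at base 23, and the other starts had none of the motifs. Eif2ak2 also had a GAS motif at base -178. Mavs had none of the 3 motifs in its window, which says only that these letters are not in it. The 3 genes with an ISRE core showed no common direction across scales. As deposited their log2 changes were -0.58 for Ifih1, -0.38 for Eif2ak2 and -0.13 for Ddx58, where 36.9% of all genes were called lower, and after correction they were -0.098, -0.036 (not past the threshold) and 0.085.

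In WT macrophages the levels ran, from high to low, Zbp1, Ifih1, Ddx58, Dhx58, Adar, Eif2ak2 and Mavs. Adar and Eif2ak2 overlapped in WT, and all other neighbours in the order stood apart. In Gsdmd-/- macrophages the order was Zbp1, Dhx58, Ifih1, Ddx58, Adar, Eif2ak2 and Mavs. There, Dhx58 and Ifih1 overlapped, Ifih1 and Ddx58 overlapped, and the others stood apart. As deposited, Ifih1 thus went from a level of its own to the range of the other RIG-I-like receptors. Of its log2 change of -0.58, the trend on length and GC held -0.48. After correction the Dhx58 to Ifih1 ratio had a log2 change of 0.037. All of the genes but Mavs were among the more abundant transcripts, with percentiles of 86.6 to 97.1 among tested genes by mean FPKM. Mavs was at percentile 42.4 in WT and 41.8 in Gsdmd-/- samples.

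Ratios between genes within a sample do not move with the scaling of a sample, and 5 were compared. The Ddx58 to Ifih1 ratio of FPKM was 0.693 ± 0.00941 in WT and 0.945 ± 0.0322 in Gsdmd-/- samples (SD, n = 3 each), a log2 change of 0.45. The ratio of the regulator Dhx58 to Ifih1 went from 0.635 ± 0.0249 to 1.06 ± 0.0507, a log2 change of 0.73. The RNA of LGP2 was thus under that of MDA5 in each WT sample and at or above it in Gsdmd-/- samples, where the third sample had a ratio of 0.999. The ratio of Adar, which removes the ligand, to Ifih1 went from 0.361 ± 0.000360 to 0.504 ± 0.00956 (log2 change 0.48), and that of Adar to Eif2ak2 from 1.05 ± 0.0598 to 1.28 ± 0.0439 (0.28). Adar to Zbp1, the pair of genes with Z-alpha domains, went down from 0.297 ± 0.00996 to 0.244 ± 0.00684 (-0.28). Groups did not overlap for any of the 5 ratios, and they did not overlap for 79.4% of single tested genes. The share over other pairs of genes was not computed. Each ratio had p = 0.1 in an exact two-sided permutation test, before and after adjustment over the 5. That is the smallest p that 3 samples against 3 can give. After correction the log2 changes were 0.18 for Ddx58 to Ifih1, 0.037 for Dhx58 to Ifih1, 0.21 for Adar to Ifih1, 0.15 for Adar to Eif2ak2 and 0.19 for Adar to Zbp1, the last with its direction turned.

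**Figure D4:**
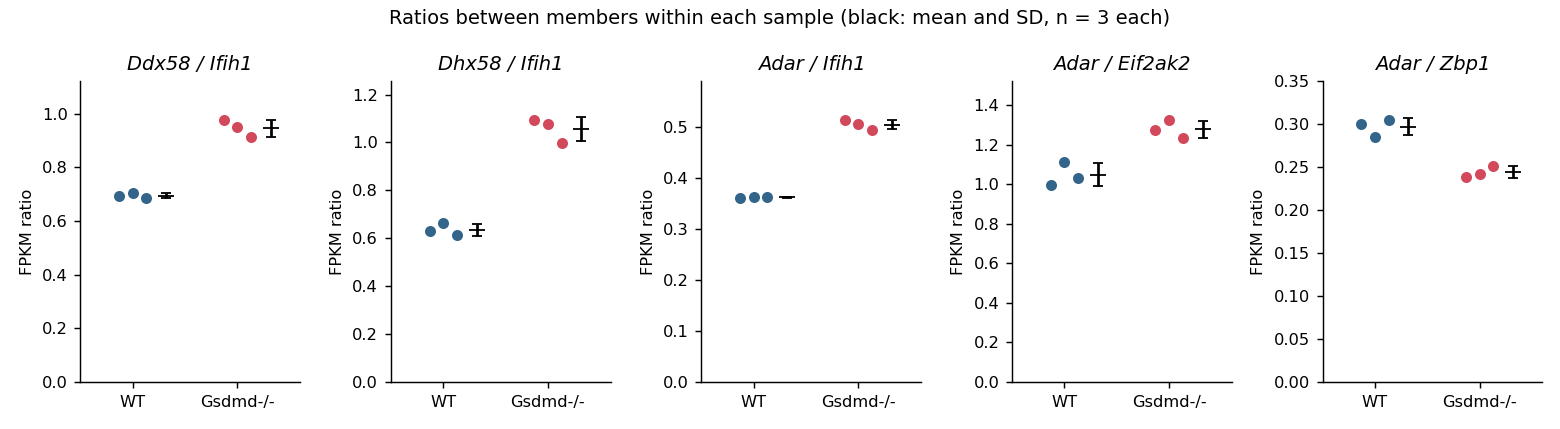
FPKM ratios of 5 pairs of genes within each sample, with WT in blue, Gsdmd-/- in red, mean and SD (n = 3 each) in black and vertical axes that start at 0. The Dhx58 to Ifih1 ratio moves most, from a mean of 0.635 to 1.06, and Adar to Zbp1 is the one ratio that goes down.

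Ligand formation and the partners of the sensors were read from 9 lists with 119 distinct genes, of which 109 were tested. Some genes stand in more than one list. As deposited 41 of the 109 rose and 51 fell (40.6% and 36.9% of all genes did), with a median log2 change of -0.065 against 0.027 for all tested genes. After correction 41 rose and 37 fell (30.1% and 31.3% of all genes did), with a median of 0.013 against -0.0016 for all genes. In TPM 30 rose and 66 fell (25.0% and 51.0% of all genes did), with a median of -0.28 against -0.17.

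Interferon beta (Ifnb1), the product of the pathway and the inducer of most of its sensors, had 87.36, 80.85 and 86.59 FPKM in the WT samples, against 197.58, 189.05 and 190.98 FPKM in the Gsdmd-/- ones. The nearest samples of the groups were 102 FPKM apart, and Ifnb1 rose by 1.17 on the log2 scale (SE 0.035, limma adjusted p = 4.05e-10) and was at 0.86 after correction. Of the 9 genes of interferon production and signalling upstream of the sensors, 2 rose and 5 fell, with a median change of -0.18, and 2 rose and 5 fell after correction (median -0.12). The shares over all genes were 40.6% and 36.9% as deposited, and 30.1% and 31.3% after correction. The receptor kinase gene Jak1 fell by 0.59 (-0.29 after correction). As deposited, higher Ifnb1 thus stood beside lower Ifih1, Eif2ak2, Ddx58 and Adar, and beside higher Dhx58 and Zbp1. After correction Ddx58 and Adar were higher, Ifih1, Dhx58 and Zbp1 were lower, and Eif2ak2 had no call.

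Among 13 tested cofactors of RIG-I and MDA5, 2 rose and 6 fell (median -0.065), and 2 rose and 7 fell after correction (median -0.11). Beside this list and that of the inhibitors, 40.6% of all genes rose and 36.9% fell as deposited, and 30.1% and 31.3% after correction. Mex3c, a ubiquitin ligase of RIG-I, had 10.69, 11 and 10.96 FPKM in the WT samples, against 4.09, 3.88 and 4.37 FPKM in the Gsdmd-/- ones, and fell by 1.22 on the log2 scale (-1.01 after correction). Ddx60, a helicase, went from 49.1 ± 3.19 to 23.5 ± 1.64 FPKM (SD, n = 3 each) and fell by 1.03 (-0.42 after correction). The RNA helicase gene Dhx15 fell by 0.68 (-0.51 after correction). These 3 decreases passed the test on both scales, and as deposited each was larger than that of Ddx58. Of 9 tested inhibitors of these receptors, 1 rose and 6 fell (median -0.33), and 1 rose and 4 fell after correction (median -0.0044). Arl5b, a GTPase that binds MDA5, fell by 1.09 (-0.45 after correction). The deubiquitinase gene Cyld and the kinase gene Csnk2a1 fell by 0.73 and 0.49 (-0.15 and -0.16 after correction).

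Downstream of MAVS, 9 of 20 genes of the complex and its kinases rose and 10 fell (median -0.016), and 11 rose and 5 fell after correction (median 0.15). For both MAVS lists the shares over all genes were 40.6% and 36.9% as deposited, and 30.1% and 31.3% after correction. Ifit3, an interferon-induced protein that bridges MAVS to TBK1, had 1151.60, 1116.79 and 1178.53 FPKM in the WT samples, against 1805.93, 1784.59 and 1813.21 FPKM in the Gsdmd-/- ones. It rose by 0.65 on the log2 scale (0.49 after correction). Irf7, the transcription factor that amplifies interferon production, went from 743 ± 22.8 to 1049 ± 21.1 FPKM (SD, n = 3 each) and rose by 0.50 (0.22 after correction). Tank, a scaffold of TBK1, went the other way and fell by 0.70 (-0.44 after correction). All 3 changes were larger in size than that of Mavs, and the differences between them were not tested. Of 17 inhibitors and mitochondrial partners of MAVS, 6 rose and 8 fell (median -0.090), and 4 rose and 9 fell after correction (median -0.14). Itch, a ubiquitin ligase that can direct the degradation of MAVS, fell by 0.82 (-0.33 after correction). Ndfip1, an activator of such ligases, fell by 0.42 (-0.49 after correction). Cox5b, a cytochrome oxidase subunit, rose by 0.63 (0.22 after correction).

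Of 6 partners through which ZBP1 starts cell death, 5 rose and 1 fell (median 0.29), where 40.6% of all genes were called higher and 36.9% lower. In TPM 3 rose and 1 fell (median 0.089), where 25.0% of all genes were called higher and 51.0% lower (median -0.17). After correction 5 rose and 0 fell in limma (median 0.25), with all 6 changes above 0. Of all genes with a length, 30.1% were then called higher and 31.3% lower. Ripk3, the kinase that ZBP1 engages, had 12.77, 14.94 and 14.07 FPKM in the WT samples, against 19.49, 20.57 and 18.73 FPKM in the Gsdmd-/- ones. It rose by 0.47 (0.16 after correction). Mlkl, the membrane executor of necroptosis, went from 106 ± 5.13 to 125 ± 1.75 FPKM and Casp8, the caspase that restrains necroptosis, from 97.3 ± 0.470 to 121 ± 0.661 FPKM (SD, n = 3 each). They rose by 0.24 and 0.31 (0.099 and 0.33 after correction). In TPM the change of Mlkl was 0.016 (limma adjusted p = 0.701).

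Around PKR, 11 of 18 genes of the eIF2 pathway rose and 5 fell (median 0.29), and 9 rose and 3 fell after correction (median 0.16). Of all genes, 40.6% rose and 36.9% fell as deposited, and 30.1% and 31.3% after correction. In TPM 9 of the 18 rose and 8 fell (median 0.073), where 25.0% of all genes rose and 51.0% fell. Ppp1r15a, the phosphatase subunit that reverses eIF2 alpha phosphorylation, had 80.99, 84.24 and 78.49 FPKM in the WT samples, against 163.17, 167.20 and 166.50 FPKM in the Gsdmd-/- ones. It was at 204% of the WT level, and rose by 1.02 on the log2 scale (0.83 after correction), in the opposite direction to Eif2ak2 as deposited. The eIF2 beta subunit gene Eif2s2 rose by 0.57 (0.71 after correction). The gamma subunit gene Eif2s3x fell by 0.70 (-0.44 after correction).

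Of 12 tested genes of RNA editing and double-stranded RNA binding, the companions of ADAR1, 2 rose and 8 fell (median -0.36), and 3 rose and 6 fell after correction (median -0.15). Beside this list and that of RNA and DNA decay, 40.6% of all genes rose and 36.9% fell as deposited, and 30.1% and 31.3% after correction. The helicase gene Dhx9, whose protein unwinds double-stranded RNA, went from 23.0 ± 1.16 to 12.1 ± 1.17 FPKM (SD, n = 3 each). It fell by 0.87 (-0.51 after correction). Zfr, a zinc finger RNA-binding protein, fell by 0.73 (-0.32 after correction), and Son, a splicing cofactor, fell by 0.63 (-0.16 after correction). Of 12 genes of RNA and DNA decay that limit sensing, 6 rose and 4 fell (median 0.11), and 7 rose and 1 fell after correction (median 0.13). The subunits of ribonuclease H2, Rnaseh2a and Rnaseh2c, rose by 0.78 and 0.72 (0.66 and 0.16 after correction). The DNA exonuclease gene Trex1 went from 332 ± 6.68 to 545 ± 23.5 FPKM (SD, n = 3 each) and rose by 0.71 (0.14 after correction). The median of this list was -0.10 in TPM, against -0.17 for all genes, where as deposited it was 0.11 against 0.027.

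The endosomal sensor of double-stranded RNA, Tlr3, was compared with the cytosolic ones. WT samples had 101.5, 97.21 and 99.19 FPKM, and Gsdmd-/- samples 45.54, 45.0 and 48.75 FPKM. It was at 46.8% of the WT level and fell by 1.08 on the log2 scale (SE 0.037, -0.62 after correction), a larger decrease than that of any of the 7 cytosolic genes on either scale. Whether Tlr3 differed in its change from Ifih1 was not tested.

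For each of the 7 genes, the 2 tested genes with the most similar profile were found by the root mean square distance of log2(FPKM + 1) over the 6 samples, each gene centred on its own WT mean. Those given here were Polr1a and Nomo1 for Ddx58, Trps1 and Tns1 for Ifih1, Armc5 and Glrx for Dhx58, Prmt3 and Sptlc1 for Mavs, Lgmn for Zbp1, Slc17a5 and Dst for Eif2ak2, and Eloa for Adar. The distances ran from 0.0054 (Zbp1 and Lgmn) to 0.021 (Eif2ak2 and Dst) on the log2 scale. The rule left the 7 genes themselves out of the search.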

How the data were processed

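Groups and replicate numbers came from the sample labels. Per the submitters' processing notes, Bowtie2 version 2.2.5 and the build GRCm38.p6 were used; the counting program is not stated. The deposited values carry no unit and were read as FPKM computed by the authors, since the smallest steps between them shrink as transcripts get longer; these steps also gave the depth. In 25 cases a symbol turned into a date was repaired through its identifier.

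Genes with at least 1 FPKM in at least 3 samples were tested with limma 3.58.1 (trend and robust, statmod 1.5.0, R 4.3.3) on log2(FPKM + 1), a scale that understates changes of low genes, with Benjamini-Hochberg adjustment over all 10005 of them. The script was tested on simulated data. Ratios were tested by exact permutation on the same log scale. Length and GC were corrected in each sample with natural splines (4 degrees of freedom) from GENCODE M21 coding transcripts, for 98.5% of tested genes. The longest transcript was used, a choice made after seeing that the trend on it held more variance than that on the median transcript (50.7% against 38.0%). Coordinates and promoter windows came from RefSeq.

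The genes, lists and tests were chosen with earlier results of these data known. Named were the 7 genes, Gsdmd, Tlr3, the 3 smallest p-values per list, and the 2 nearest profiles per gene. Of these, 3 genes are not reported here. The individual cell type markers and the overlapping neighbours were named after their values or positions were seen. The list genes Trim40 and Adad1 were not analysed here, and March5 was read as Marchf5.

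Nothing in the labels ties the samples of a group to separate mice, so the p-values reflect sample-to-sample spread that may be technical. A chi-square test of estimated fragments gave 1.69 to 2.59 per degree of freedom within groups and 23.0 to 31.5 between them. No 2 samples were counted as 1, though this test cannot tell separate mice from separate libraries of the same mouse. Alternatives were another pseudocount, no filter, TPM, median ratio scaling, correction for length and GC, a replicate block and leaving out each sample.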

Additional observations from a re-analysis of the deposited data

How the results depend on the processing

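Of the 7 genes, Ifih1 kept its direction and its call under all 14 alternatives. After correction for length and GC, log2 changes were 0.085 for Ddx58, -0.061 for Dhx58, -0.20 for Mavs, -0.081 for Zbp1, -0.036 for Eif2ak2 and 0.11 for Adar. With the median transcript, an alternative chosen after seeing the data, they were 0.13 for Ddx58 and 0.070 for Dhx58 (past the threshold). They were, with no call, -0.079 for Mavs, -0.021 for Zbp1, 0.084 for Eif2ak2 and 0.020 for Adar. In that setting 1 of the 7 genes fell (Ifih1), and the shares over all genes were not computed. The median of the inhibitors of RIG-I and MDA5 was 0.032 there. In TPM the log2 changes were -0.070 for Dhx58, -0.31 for Mavs and -0.042 for Zbp1. On that scale 0 of the 7 genes rose (limma), where 25.0% of all genes rose and 51.0% fell. The median of the RNA decay list was -0.10 in TPM, against -0.17 for all genes. The log2 changes of the ratios after correction were 0.18 (Ddx58 to Ifih1), 0.037 (Dhx58 to Ifih1), 0.21 (Adar to Ifih1), 0.15 (Adar to Eif2ak2) and 0.19 (Adar to Zbp1). The cause of these differences was not tested. Leaving out each sample moved Adar between -0.13 and -0.081.

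The replicate numbers did not pair the samples: deviations of same-numbered samples correlated at -0.082, 0.13 and 0.014. With the replicate block, 2 genes rose and 4 fell, the same 6 genes as without it. Without the block 40.6% of all genes rose and 36.9% fell, and the shares with it were not computed. With the block and correction, Ddx58 was at 0.085, Dhx58 at -0.061, Mavs at -0.20, Zbp1 at -0.081, Eif2ak2 at -0.036 and Adar at 0.11. Depth limited Mavs most, at an estimated 402 to 465 fragments per library, and intervals on it cover the spread of 3 samples a group.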
